A study of Mus musculus with 28 samples.

Results

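The costimulatory and checkpoint molecules followed here are 8 genes of the macrophage surface, Cd80, Cd86, Cd40, Icosl, Cd274, Pdcd1lg2, Cd83 and Lag3, taken by symbol from the 54532 genes of the count table. They were measured by bulk RNA sequencing in 28 cultures of murine bone marrow-derived macrophages (BMDMs), in a study of what von Willebrand factor (VWF), a plasma glycoprotein of hemostasis, does to macrophages. Marrow came from C57/B6JB mice of 8 to 12 weeks and was grown for 7 days in macrophage colony-stimulating factor (M-CSF), a protocol that gives a population dominated by macrophages rather than a sorted one. Cells were then placed in fresh medium with 1 mM CaCl2 in every group, and received plasma-derived VWF at 10 µg/ml, bacterial lipopolysaccharide (LPS, the Toll-like receptor 4 ligand) at 100 ng/ml, or PBS as control, for 3.5 h or 16 h. Each time point had 5 control, 5 VWF and 4 LPS cultures.

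A T cell that meets antigen on a macrophage also reads a second signal from the macrophage surface. CD80 and CD86 bind CD28 to activate and CTLA-4 to restrain, ICOSL binds ICOS, and CD40 receives a signal back from CD40 ligand on the T cell, while PD-L1 (encoded by Cd274) and PD-L2 (encoded by Pdcd1lg2) engage the inhibitory receptor PD-1. CD83 keeps MHC class II and CD86 at the surface by opposing the ubiquitin ligase MARCH1, and LAG3 is an inhibitory receptor for MHC class II that is best known from T cells.

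On GRCm38, with GENCODE M21 gene models, Cd80 lies on chromosome 16 at 38455561-38496335 on the plus strand and Cd86 on the same chromosome at 36603869-36666081 on the minus strand. Cd274 (chromosome 19, 29367455-29388095) and Pdcd1lg2 (chromosome 19, 29410919-29471161) are neighbours on the plus strand with 22823 bases between them. Cd40 is on chromosome 2 at 165055627-165072948 (plus), Icosl on chromosome 10 at 78069302-78083913 (plus), Cd83 on chromosome 13 at 43784775-43803132 (plus) and Lag3 on chromosome 6 at 124904361-124911705 (minus). None of the 100-base windows of the members' transcripts occurred in a transcript of another gene. An antisense gene of GENCODE M21, AC119228.1, overlaps 14.1% of the exon length of Cd274, and it is not among the genes of the count table. Since the strand setting of the counting is not given in the sources used here, reads from that stretch cannot be assigned to one strand.

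RefSeq promoters (GRCm38.p6) matched 4 of the 8 members, Icosl, Cd80, Cd274 and Pdcd1lg2. Upstream stretches are shown for Icosl, the member that was higher with VWF than with LPS, and for the neighbours Cd274 and Pdcd1lg2, which had the highest and the lowest level per exon length in LPS cultures at 16 h. Each runs 5′ to 3′ on the plus strand and ends before the GENCODE start of the gene, at chr10:78069118-78069301, chr19:29367188-29367437 and chr19:29410669-29410918, and capitals mark the motif match.
Icosl: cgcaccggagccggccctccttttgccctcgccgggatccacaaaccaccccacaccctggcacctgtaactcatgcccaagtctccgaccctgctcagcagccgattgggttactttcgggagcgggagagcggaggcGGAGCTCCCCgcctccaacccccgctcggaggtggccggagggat
Cd274: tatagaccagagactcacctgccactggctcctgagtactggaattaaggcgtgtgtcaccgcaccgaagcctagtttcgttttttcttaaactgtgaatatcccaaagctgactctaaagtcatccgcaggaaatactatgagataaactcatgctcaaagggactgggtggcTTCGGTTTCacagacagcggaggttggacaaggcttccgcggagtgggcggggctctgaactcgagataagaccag
Pdcd1lg2: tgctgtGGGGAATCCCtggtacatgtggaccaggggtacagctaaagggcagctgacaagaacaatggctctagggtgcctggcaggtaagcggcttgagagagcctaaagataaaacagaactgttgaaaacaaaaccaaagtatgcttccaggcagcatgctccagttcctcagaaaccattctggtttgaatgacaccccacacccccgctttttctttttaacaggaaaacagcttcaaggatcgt
The capitals in Icosl are a match to the NF-kappaB consensus on the minus strand, 111 to 102 bases before the RefSeq start site (-111 to -102), in a window of 68.8% GC. In Cd274 they match the core of the interferon-stimulated response element, GAAANNGAA, on the minus strand at -76 to -68, and in Pdcd1lg2 the NF-kappaB consensus at -244 to -235, which reads on both strands. The motifs were searched on both strands of the 250 bases before the start site, and no match overlapped one of another motif. Of 32851 RefSeq promoters, 7.25% held the NF-kappaB consensus, 7.13% the interferon-stimulated core, 7.02% the STAT motif TTCNNNGAA and 6.75% the AP-1 motif TGANTCA, which among the members was found in Cd80 at -42 to -36. The Cd80 window, chr16:38458683-38458932, lies inside the GENCODE gene, whose start is at 38455561, and is not shown. A match of letters is a description of the sequence and was not tested as a binding site.

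Total counts per culture lay between 41131209 and 77699206, with a median of 52986574, and levels are given as CPM, counts scaled to a common library size with TMM factors. TMM factors were lower in LPS cultures (0.729 to 0.845) than in control (0.944 to 1.19) and VWF cultures (0.967 to 1.12). The 7 macrophage markers summed to between 4861 and 25630 CPM. Of the T cell genes, Cd3d and Cd3e stayed at or below 0.11 CPM, while Cd3g reached 0.871, Cd5 2.31 and Cd4 8.53 CPM in their highest cultures. Of the NK cell genes, Klra8 had 0 counts in every culture and Klrb1c reached 1.62 CPM. One culture stood apart, control replicate 5 at 16 h, whose log2 CPM correlated with the rest of its group at a mean r of 0.910, against 0.946 for the next lowest culture and 0.988 for the highest. Its macrophage markers summed to 4861 CPM against 13460 to 16150 CPM in the other 4 control cultures, and no member's call changed without it. Values without it are given for Cd86, Cd274 and Lag3 and for the interactions that moved most. In bulk RNA, fewer cells of a type and less RNA per cell cannot be told apart.

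**Figure D1:**
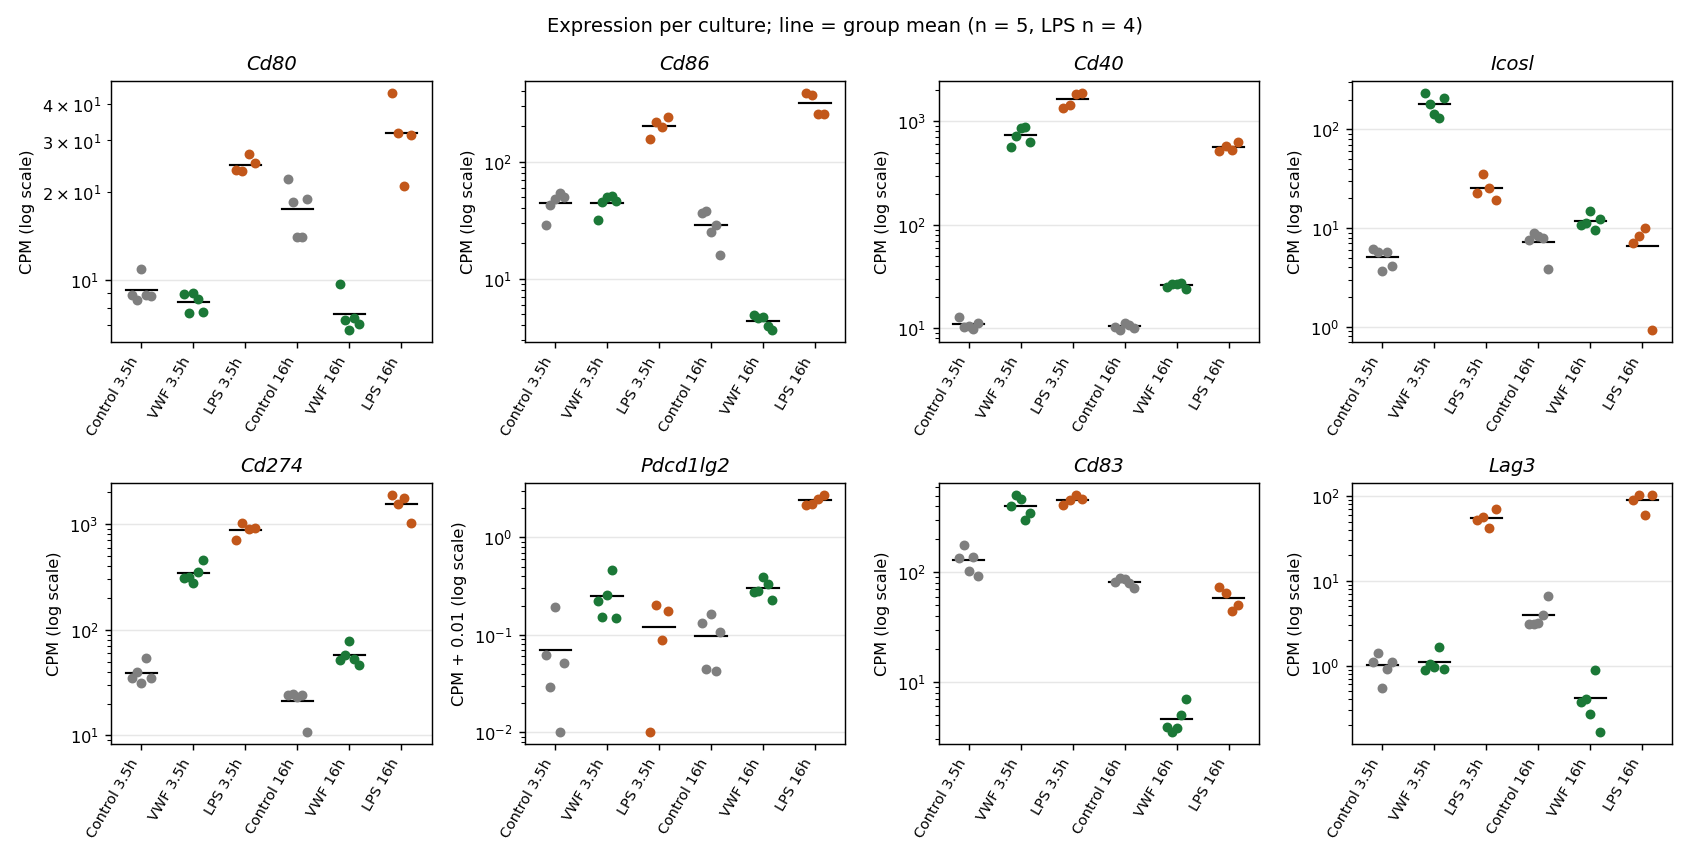
Expression of the 8 genes in CPM (log axis, with 0.01 added for Pdcd1lg2, which has cultures at 0), 1 point per culture and a line at each group mean, for control (grey), VWF (green) and LPS (orange) at both times. Cd40 and Cd274 in VWF cultures at 16 h lay below their levels at 3.5 h, and Icosl was highest in VWF cultures at 3.5 h.

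Levels were compared between genes only per kilobase of exon. In control cultures at 3.5 h, Cd83 had the highest level of the 8 at 50.2 ± 13.1 CPM per kilobase (SD, n = 5), followed by Cd86 at 12.2 ± 2.64 and Cd274 at 10.8 ± 2.52, which overlap in their spread. Pdcd1lg2 was lowest, at 0.0303 CPM per kilobase, from 18 reads in all 5 cultures. With VWF at 3.5 h, Cd40 (216 ± 40.5) and Cd83 (158 ± 34.2) led, ahead of Cd274 (94.6 ± 19.7) and Icosl (39.0 ± 9.54). By 16 h of VWF the highest level was that of Cd274, at 15.8 ± 3.50 CPM per kilobase, then Cd40 at 7.67 ± 0.399. In LPS cultures at 16 h, Cd274 (432 ± 106) and Cd40 (167 ± 15.9) led, and the level of Cd86 was 86.9 ± 19.2 against 8.63 ± 2.51 for Cd80. In VWF cultures at 16 h the order of that pair was the other way, with Cd80 at 2.05 ± 0.314 and Cd86 at 1.19 ± 0.154 CPM per kilobase.

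**Figure D2:**
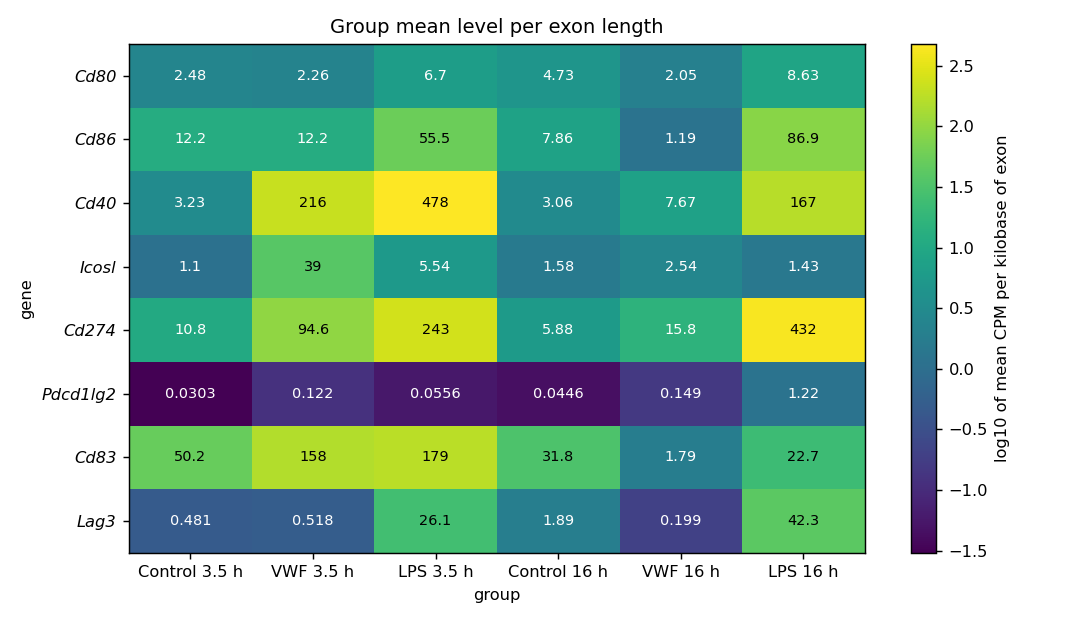
Group mean level of each gene in CPM per kilobase of exon, printed in the cells and coloured on a log10 scale, for the 6 groups. Cd274 in LPS cultures at 16 h (432) and Cd40 in LPS cultures at 3.5 h (478) are the highest cells, and Pdcd1lg2 in control cultures at 3.5 h (0.0303) is the lowest.

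At 3.5 h VWF raised Cd40, Icosl, Cd274 and Cd83, while Cd80, Cd86 and Lag3 overlapped control. Genes under 10 TPM, a count scaled to exon length and depth, in every culture of a comparison were not tested, and a gene was called at a Benjamini-Hochberg adjusted p under 0.05 in edgeR's quasi-likelihood test with an absolute log2 fold change above 1. Of the 8 members, 5 were tested between VWF and control at 3.5 h and 4 were called, all higher, whereas over all 8200 genes tested 9.10% were called higher and 5.59% lower. Icosl entered that test through the VWF cultures only, with control below 10 TPM, so that it could hardly be tested without being higher, and of the 4 members that reached 10 TPM in both groups, Cd40, Cd274 and Cd83 were called. By 16 h 5 members were tested and called, Cd40 and Cd274 higher and Cd80, Cd86 and Cd83 lower, against 4.55% higher and 4.15% lower over 7798 genes. There Cd80, Cd86 and Cd83 entered through the control cultures only, and Cd40 and Cd274 reached 10 TPM in both groups. The p-values measure the spread between cultures that the labels call biological replicates, and whether these came from separate animals is not given there.

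LPS against control gave more calls at 3.5 h than at 16 h among the members. At 3.5 h 7 of the 8 were tested and all 7 were higher, with 12.8% of 8190 genes called higher and 11.8% lower. Cd80, Icosl and Lag3 reached 10 TPM in the LPS cultures only, so their inclusion already turned on a high level there, while Cd86, Cd40, Cd274 and Cd83 reached it in both groups. At 16 h 6 were tested and 4 were called higher, Cd86, Cd40, Cd274 and Lag3, with 15.3% of 7994 genes higher and 12.4% lower, and Lag3 again entered through the LPS cultures only. VWF and LPS were each compared with the same control cultures, so these counts are not independent of each other.

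**Figure D3:**
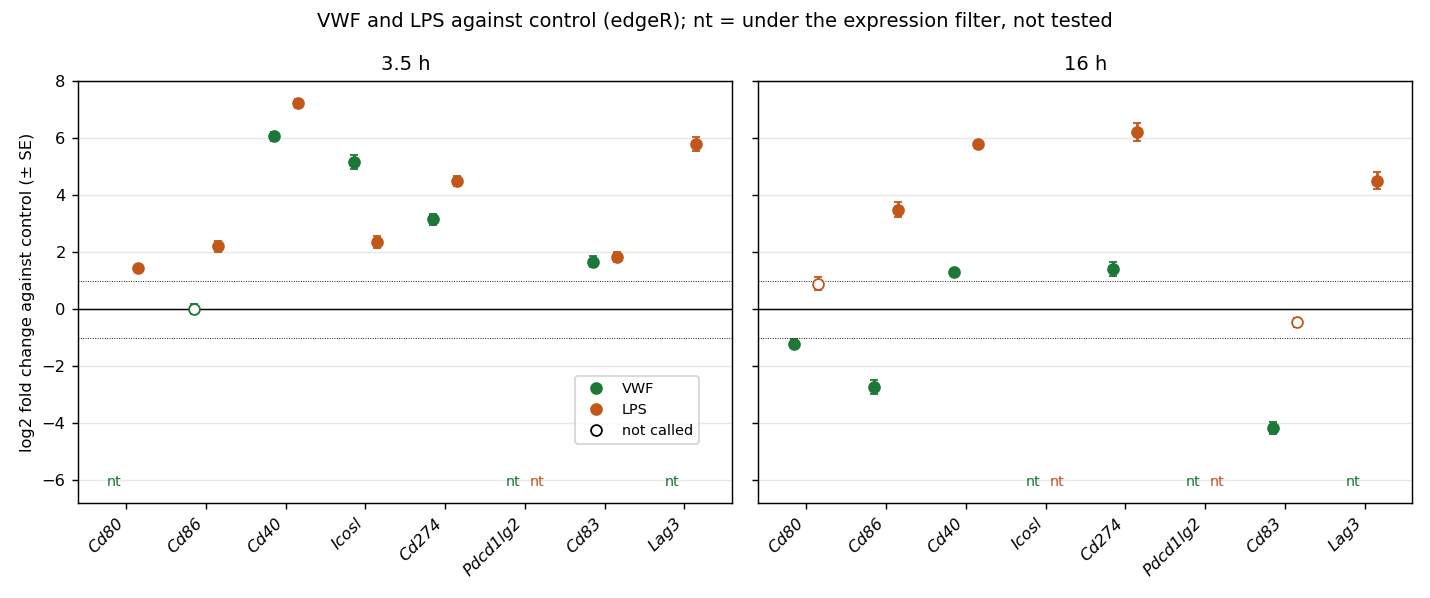
Log2 fold change against control (vertical axis, ± SE) of each gene with VWF (green) and LPS (orange) at 3.5 h (left) and 16 h (right), where open points were not called, dotted lines mark a log2 fold change of 1 in either direction, and nt marks genes under the expression filter. Cd83, Cd86 and Cd80 with VWF are below 0 at 16 h, and all called points at 3.5 h are above 0.

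Cd80 and Cd86, the ligands shared by CD28 and CTLA-4, rose with LPS, Cd86 at both times and Cd80 by call at 3.5 h, and neither was called higher with VWF. Cd86 had 28.9, 42.8, 47.5, 54.1 and 49.8 CPM in the control cultures at 3.5 h, 31.7, 44.8, 49.6, 50.9 and 46.0 CPM in the VWF cultures, and 156, 219, 196 and 242 CPM in the LPS cultures. The VWF cultures lay within the range of control, and every LPS culture lay above both. The log2 fold change was 0.01 ± 0.17 (SE) with VWF, adjusted p = 0.973 in edgeR's quasi-likelihood test, and 2.20 ± 0.18 with LPS, adjusted p = 9.04e-07.

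At 16 h the 2 treatments moved Cd86 in opposite directions. Control cultures held 36.2, 37.9, 24.9, 28.8 and 16.1 CPM, VWF cultures 4.93, 4.66, 4.67, 3.91 and 3.62 CPM, and LPS cultures 386, 372, 257 and 257 CPM. No group overlapped another, and the control culture at 16.1 CPM was replicate 5, the one that stood apart. Cd86 was 6.68-fold lower with VWF (log2 fold change -2.74 ± 0.24, edgeR adjusted p = 1.34e-05) and 11.2-fold higher with LPS (3.49 ± 0.27, adjusted p = 4.04e-06). Without control replicate 5 the log2 fold changes of Cd86 were -2.89 with VWF and 3.33 with LPS.

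Cd80 moved less than Cd86. Its levels at 3.5 h were 9.18 ± 0.96 CPM in control (SD, n = 5), 8.38 ± 0.6251 CPM with VWF (n = 5) and 24.8 ± 1.55 CPM with LPS (n = 4), where the LPS cultures began at 23.6 CPM and the others ended at 10.9 CPM. LPS raised Cd80 2.71-fold (log2 fold change 1.44 ± 0.10, edgeR adjusted p = 2.87e-07), and with library sizes alone as scaling the log2 value was 0.90, under the fold threshold. VWF against control at 3.5 h left Cd80 under 10 TPM, and under edgeR's own filter its log2 fold change was -0.07 with an adjusted p of 0.699.

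At 16 h Cd80 stood at 22.2, 18.4, 13.96, 14.03 and 18.9 CPM in control and at 9.63, 7.27, 6.69, 7.38 and 7.05 CPM in the VWF cultures. The highest VWF culture lay below the lowest control culture, and the log2 fold change was -1.22 ± 0.16 (edgeR adjusted p = 0.000215). The LPS cultures, at 43.7, 31.9, 20.98 and 31.3 CPM, overlapped control at the lowest of the 4, and the log2 fold change of 0.89 ± 0.22 (adjusted p = 0.00698) was under the fold threshold. Without LPS replicate 3, the lowest, it was 1.05.

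CD40, the receptor through which a helper T cell signals back to the macrophage, had the largest change with VWF among the members at 3.5 h. Control cultures held 12.98, 10.4, 10.5, 9.86 and 11.4 CPM, VWF cultures 569, 725, 869, 879 and 638 CPM, and LPS cultures 1349, 1456, 1829 and 1886 CPM. The groups were separated by a wide margin from control and did not overlap each other. Cd40 rose 67.2-fold with VWF (log2 fold change 6.07 ± 0.16, edgeR adjusted p = 6.16e-10) and 149-fold with LPS (7.22 ± 0.16, adjusted p = 1.05e-10).

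At 16 h Cd40 was much nearer to control with VWF than with LPS. VWF cultures held 25.3, 27.0, 26.7, 27.5 and 24.2 CPM, all above the control cultures at 9.54 to 11.4 CPM, and LPS cultures held 522, 584, 531 and 639 CPM. The log2 fold changes were 1.31 ± 0.08 with VWF (edgeR adjusted p = 1.52e-06) and 5.79 ± 0.12 with LPS (adjusted p = 5.48e-09). From 3.5 h to 16 h Cd40 fell 27.96-fold in VWF cultures and 2.81-fold in LPS cultures, and control changed by -0.08 on the log2 scale.

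Icosl, the ligand of the T cell costimulatory receptor ICOS, was the member that was higher with VWF than with LPS at 3.5 h. At 3.5 h it had 6.15, 5.72, 3.65, 5.72 and 4.10 CPM in control, 235, 182, 143, 130 and 211 CPM with VWF, and 22.8, 35.1, 25.4 and 19.1 CPM with LPS. The lowest VWF culture was above the highest LPS culture, which in turn was above every control culture. Icosl rose 35.9-fold with VWF (log2 fold change 5.17 ± 0.23, edgeR adjusted p = 1.46e-08) and 5.08-fold with LPS (2.34 ± 0.21, adjusted p = 2.41e-06), and was 7.20-fold higher with VWF than with LPS (2.85 ± 0.24, adjusted p = 4.73e-06).

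By 16 h Icosl was close to control in both treated groups. Control cultures held 7.51, 8.95, 8.29, 7.88 and 3.85 CPM, VWF cultures 10.7, 11.1, 14.9, 9.50 and 12.4 CPM, and LPS cultures 7.09, 8.38, 10.1 and 0.915 CPM. The VWF cultures were all above control, LPS overlapped both, and the lowest LPS value (replicate 4) rests on 36 counts. Icosl stayed under 10 TPM in these cultures and was not tested at 16 h. Under edgeR's own filter its log2 fold change at 16 h was 0.73 ± 0.21 with VWF (adjusted p = 0.0303) and -0.04 with LPS (adjusted p = 0.963). From 3.5 h to 16 h it fell by 3.93 on the log2 scale in VWF cultures and by 1.93 ± 0.57 in LPS cultures (edgeR adjusted p = 0.0165), or by 1.56 without LPS replicate 4 at 16 h.

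Cd274, which encodes the PD-1 ligand PD-L1, rose with both treatments at both times, and fell between the times in VWF cultures. At 3.5 h it had 35, 39.6, 31.2, 54.5 and 34.9 CPM in control, 307, 314, 278, 354 and 460 CPM with VWF, and 700, 1014, 889 and 922 CPM with LPS. The 3 groups did not overlap, and the log2 fold changes were 3.15 ± 0.19 with VWF (8.86-fold, edgeR adjusted p = 1.05e-07) and 4.51 ± 0.18 with LPS (22.7-fold, adjusted p = 3.24e-09). At 16 h control cultures held 24.2, 24.6, 23.0, 24.0 and 10.7 CPM, VWF cultures 51.4, 57.4, 78.8, 53.4 and 45.9 CPM, and LPS cultures 1900, 1547, 1774 and 1032 CPM.

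Those groups at 16 h again did not overlap, and the lowest control value was that of replicate 5. The log2 fold changes of Cd274 were 1.41 ± 0.24 with VWF (edgeR adjusted p = 0.00132) and 6.22 ± 0.32 with LPS (adjusted p = 2.91e-07), and without control replicate 5 they were 1.24 and 6.05. From 3.5 h to 16 h Cd274 fell 5.91-fold in VWF cultures. In LPS cultures the log2 change of Cd274 was 0.86 ± 0.20, under the fold threshold with an edgeR adjusted p of 0.00476, and 1.02 without LPS replicate 4 at 16 h.

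Pdcd1lg2, its neighbour on chromosome 19 and the gene of the other PD-1 ligand, was barely detected. Its counts were 0 to 24 per culture in the control and VWF groups at both times and in the LPS group at 3.5 h. In LPS cultures at 16 h they were 96 to 114, or 2.15, 2.20, 2.48 and 2.74 CPM, above every other culture. It passed 10 TPM in no culture and was not tested. Under edgeR's own filter the log2 fold change of Pdcd1lg2 with LPS at 16 h was 4.86 ± 0.46 (adjusted p = 1.6e-05) and with VWF 1.78 ± 0.46 (adjusted p = 0.0166), the latter from 12 to 24 counts per VWF culture and 2 to 9 per control culture. With no filter the VWF value of Pdcd1lg2 was 1.78 ± 0.55 with an adjusted p of 0.0531, so that call was lost.

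Cd83, the surface protein that protects MHC class II and CD86 from ubiquitination, rose with VWF early and was far below control later. At 3.5 h it had 134, 178, 103, 138 and 91.7 CPM in control, 403, 512, 471, 298 and 345 CPM with VWF, and 409, 456, 505 and 472 CPM with LPS. Both treated groups were above control and overlapped each other. Cd83 rose 3.17-fold with VWF (log2 fold change 1.66 ± 0.20, edgeR adjusted p = 3.39e-05) and 3.58-fold with LPS (1.84 ± 0.18, adjusted p = 3.73e-06), and the difference between the 2 treatments was -0.15 ± 0.15 (adjusted p = 0.42), a value that turned to 0.15 with library sizes alone as scaling.

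At 16 h the control cultures held 81.0, 88.6, 87.4, 79.4 and 72.1 CPM of Cd83, the VWF cultures 3.85, 3.48, 3.83, 4.96 and 6.94 CPM, and the LPS cultures 73.5, 65.2, 44.7 and 49.8 CPM. The VWF cultures lay far below both other groups, and LPS overlapped control only at its highest culture. Cd83 was 17.9-fold lower with VWF than in control (log2 fold change -4.17 ± 0.20, edgeR adjusted p = 6.45e-07). With LPS the log2 fold change of Cd83 was -0.46 ± 0.15 (adjusted p = 0.0270), under the fold threshold, and -1.03 with library sizes alone. Within VWF cultures Cd83 fell 87.8-fold between the times and within LPS cultures 7.75-fold.

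Lag3, the MHC class II receptor, rose with LPS and overlapped control with VWF at 3.5 h. At 3.5 h it had 1.10, 1.41, 0.551, 0.903 and 1.10 CPM in control, 0.885, 1.04, 0.958, 1.66 and 0.913 CPM with VWF, and 51.6, 56.0, 41.9 and 70.8 CPM with LPS. The VWF and control cultures overlapped, and the LPS cultures stood above both, with a log2 fold change against control of 5.78 ± 0.25 (55.0-fold, edgeR adjusted p = 5.81e-09). For VWF against control Lag3 was under 10 TPM, and under edgeR's own filter the log2 fold change was 0.17 (adjusted p = 0.699).

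At 16 h Lag3 had 3.10, 3.13, 3.18, 3.98 and 6.58 CPM in control, 0.377, 0.402, 0.269, 0.890 and 0.164 CPM with VWF, and 89.3, 104, 59.8 and 104 CPM with LPS. No groups overlapped, and the highest control value was that of replicate 5. LPS raised Lag3 22.8-fold (log2 fold change 4.51 ± 0.29, edgeR adjusted p = 1.30e-06), with 4.76 for Lag3 without control replicate 5. VWF against control was again below the expression filter, and under edgeR's own filter the log2 fold change of Lag3 was -3.20 ± 0.43 (adjusted p = 0.000286), from 9 to 50 counts per VWF culture.

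VWF and LPS were also compared directly. At 3.5 h 7 members were tested, Icosl was called higher with VWF, and Lag3, Cd86, Cd80, Cd274 and Cd40 were called lower, against 4.71% higher and 6.71% lower over 7500 genes. Cd80 and Lag3 reached 10 TPM in the LPS cultures only. Lag3 had the largest difference, 50.0-fold lower with VWF (log2 -5.64 ± 0.22, edgeR adjusted p = 8.41e-08). Cd40 had the smallest of those called, 2.17-fold lower (-1.12 ± 0.15, adjusted p = 0.000158), and -0.82 with library sizes alone. At 16 h all 6 members tested were called lower with VWF, where 11.1% of 7574 genes were higher and 14.5% lower, but only Cd40 and Cd274 reached 10 TPM in both groups and the other 4 did so with LPS alone.

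Those differences at 16 h ran from 4.17-fold for Cd80 (log2 -2.06 ± 0.20) and 12.6-fold for Cd83 to 72.4-fold for Cd86 (-6.18 ± 0.19) and 211-fold for Lag3 (-7.72 ± 0.41). Icosl, which was not tested there, had a log2 difference of 0.81 under edgeR's own filter with an adjusted p of 0.192. The LPS value of Icosl at 16 h includes replicate 4 with 36 counts.

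No member was called between the times in untreated cells. There 5 were tested, and 9.08% of all 8333 genes were called in either direction. Of the 5, 3 passed the adjusted p without the fold threshold. These were Cd80 (log2 0.94 ± 0.15), Cd274 (-0.87 ± 0.23, and -0.70 without control replicate 5 at 16 h) and Cd83 (-0.66 ± 0.16). Cd86 had -0.63 ± 0.24 (edgeR adjusted p = 0.0534), and -0.48 without control replicate 5 at 16 h (adjusted p = 0.0487). Lag3 was under 10 TPM in control cultures, and under edgeR's own filter it was higher at 16 h by 1.94 ± 0.30 (adjusted p = 0.000759).

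All 5 members tested between the times in VWF cultures fell, Cd83, Cd40, Icosl, Cd86 and Cd274, where 21.4% of 7927 genes were called. Cd83, Icosl and Cd86 reached 10 TPM at 3.5 h only, as did Icosl in LPS cultures. In LPS cultures 3 of 7 were called, all lower at 16 h, namely Cd83 (log2 -2.95 ± 0.17), Icosl and Cd40 (-1.49 ± 0.14), with 28.1% of 6987 genes called. Cd86 and Lag3 had log2 values of 0.68 ± 0.18 and 0.72 ± 0.21 there, past the adjusted p but under the fold threshold, and Cd80 0.39 ± 0.20 (edgeR adjusted p = 0.112).

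The change of each treatment effect between the times was tested as an interaction. For VWF, 6 of 6 members tested were called and all 6 effects were lower at 16 h, against 13.5% of 8660 genes. They were Cd83 (-5.79 ± 0.30), Cd40 (-4.73 ± 0.15), Icosl (-4.46 ± 0.31), Cd86 (-2.71 ± 0.29), Cd274 (-1.69 ± 0.30) and Cd80 (-1.06 ± 0.19), where Cd80 was under the fold threshold without control replicate 1 at 16 h (-0.96). Cd80 entered that test through the control cultures at 16 h only, and Icosl through the VWF cultures at 3.5 h only. A high level in either of those groups lowers the interaction, so the direction of these calls was favoured by the filter. For LPS, 6 of 7 were called, against 26.3% of 8748 genes, with the effects on Cd274 (1.74 ± 0.33) and Cd86 (1.32 ± 0.33) larger at 16 h and those on Icosl (-2.45 ± 0.60), Cd83 (-2.29 ± 0.24), Cd40 (-1.41 ± 0.16) and Lag3 (-1.26 ± 0.38) smaller. Icosl entered the LPS test through the LPS cultures at 3.5 h only, which likewise favoured a smaller effect at 16 h. Without control replicate 5 at 16 h the VWF interactions were -1.88 for Cd274, -2.88 for Cd86 and -4.64 for Icosl, and the LPS interactions were 1.57 for Cd274, 1.16 for Cd86, -2.61 for Icosl and -1.01 for Lag3.

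The difference between VWF and LPS also shifted between the times, in 6 of 7 members tested and in 25.0% of 8217 genes. All 6 shifts went down, from -2.03 ± 0.55 for Icosl and -2.10 ± 0.43 for Lag3 to -4.04 ± 0.24 for Cd86. Only Cd40 and Cd274 reached 10 TPM in every group of this comparison. Cd86 and Cd83 did not reach it with VWF at 16 h. Icosl reached it at 3.5 h only, and Lag3 in LPS cultures only. The shared direction therefore describes genes that passed the filter and supports nothing further. The remaining member, Cd80, had a shift of -0.54 ± 0.22 (edgeR adjusted p = 0.0445), under the fold threshold.

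Over the 6 group means of centred log2 CPM, the members nearest each other were Cd40 and Cd274, with a root mean square difference of 1.13. Icosl and Lag3 were farthest apart at 3.76. Among 8867 genes, the one most like Icosl was Adgrl2 (0.603), the most like Cd83 was Gem (0.452), the most like Cd86 was Il1rn, the interleukin-1 receptor antagonist (0.697), and the most like Cd80 was Rab29 (0.256). For Cd40 it was the processed pseudogene Gm5970 (0.468) ahead of Adora2a (0.519) and the chemokine gene Ccl22 (0.626), for Cd274 the lincRNA Gm28347 (0.364) and for Lag3 Lhx2 (0.983). These are descriptions over 6 points that share the same cultures.

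Genes around the members were described from 8 lists. Some of their genes reached 10 TPM in only 1 of the groups compared, among them Cd28 in all 4 comparisons with control, Cd276 with LPS, Cd200, Traf1 and Socs1 wherever they were called, and March1 with VWF at 3.5 h, so the counts and medians describe the genes that passed the filter and support nothing further. Against control, the shares of all genes tested that were called higher and lower with VWF were 9.10% and 5.59% at 3.5 h. With VWF at 16 h they were 4.55% and 4.15%. With LPS they were 12.8% and 11.8% at 3.5 h, and 15.3% and 12.4% at 16 h. Of the other B7 relatives, Vsir (VISTA) and Cd276 (B7-H3) passed the filter out of 5 listed, and none was called higher against control with either treatment at either time. Vsir was lower with VWF at both times (log2 -1.31 ± 0.09 at 3.5 h and -1.02 ± 0.07 at 16 h) and Cd276 was called lower with VWF at 16 h (-1.09 ± 0.13) and had -0.21 ± 0.19 at 3.5 h. With LPS, Vsir was called lower at 3.5 h and Cd276 at both times. Cd276 had 9.42 ± 0.262 CPM with LPS, 27.3 ± 3.62 with VWF and 31.9 ± 9.62 in control at 3.5 h. Its levels at 16 h were 5.04 ± 1.12, 10.8 ± 1.72 and 22.8 ± 3.22 CPM. The list medians were -0.76 with VWF and -1.42 with LPS at 3.5 h, and -1.06 and -1.34 at 16 h, where the medians of all genes tested were between -0.03 and -0.01. Of the 6 genes of CD28 family receptors and CD40 ligand, only Cd28 was tested, and it was lower in all 4 comparisons with control, by -1.22 ± 0.16 with VWF and -1.32 ± 0.19 with LPS at 3.5 h.

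The TNF superfamily costimulators had 9 listed genes. With VWF at 3.5 h the 2 tested were higher, Tnfsf9, the 4-1BB ligand (log2 4.70 ± 0.23), and the receptor Tnfrsf14 (1.69 ± 0.32), and both reached 10 TPM in both groups. Tnfsf8, the CD30 ligand, was under the filter there, with 1.58 ± 0.599 CPM for VWF and 6.75 ± 2.12 for control. With LPS 4 of 5 were higher, but Tnfsf8, Tnfsf4 and Tnfsf14 entered through the LPS cultures only, which leaves Tnfsf9 (log2 5.16 ± 0.17) as the call in a gene that reached 10 TPM in both groups. The OX40 ligand gene Tnfsf4 was raised by LPS from 0.0839 ± 0.0485 to 24.9 ± 2.17 CPM, and stood at 2.40 ± 0.349 CPM with VWF. At 16 h 0 of 3 were higher and 1 lower with VWF, and 2 of 3 higher and 1 lower with LPS. The lower one was Tnfsf8, with 0.777 ± 0.167 CPM for VWF, 9.85 ± 3.27 for LPS and 29.2 ± 11.2 for control. Tnfsf8 entered both comparisons at 16 h through the control cultures only, and Tnfrsf14 entered the LPS comparison through the LPS cultures only. Tnfsf9 reached 10 TPM in both groups each time, and was called higher with LPS but not with VWF.

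Of 16 other inhibitory receptors and ligands, 9 were tested at 3.5 h, where VWF gave 3 higher and 1 lower (median 0.74) and LPS 4 higher (median 0.82). Cd200, a ligand that restrains myeloid cells, went from 4.31 ± 1.28 to 17.9 ± 1.95 CPM with VWF and 56.9 ± 7.75 CPM with LPS. At 16 h 1 of 8 was higher and 1 lower with VWF (median -0.05), and 5 of 9 higher and 1 lower with LPS (median 1.69), Lgals9 being higher with both (1.85 ± 0.18 and 3.48 ± 0.21). In the SLAM family and adhesion list 7 of 10 were tested, with 2 higher for VWF and 4 for LPS at 3.5 h (medians 0.62 and 1.32) and 1 and 5 at 16 h (medians 0.49 and 2.48). Icam1, an adhesion ligand at the T cell contact, rose with VWF by 4.37 ± 0.27 and with LPS by 3.67 ± 0.33 at 3.5 h.

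A list of 7 genes for turnover and shedding of these surface proteins held March1, the ubiquitin ligase for CD86 and MHC class II. March1 was called higher with VWF at 3.5 h (log2 2.25 ± 0.21) and 16 h (1.55 ± 0.18) and with LPS at 16 h (3.12 ± 0.22). It was under the filter with LPS at 3.5 h, where it had 29.3 ± 6.45 CPM against 9.85 ± 2.49 in control and 46.4 ± 11.8 with VWF. The levels of March1 at 16 h were 52.0 ± 9.33 CPM for VWF, 150 ± 37.7 for LPS and 17.6 ± 4.04 for control. Adam17, a sheddase, was the other gene called with VWF at 3.5 h (1.10 ± 0.11), and Cmtm6, which stabilises PD-L1, was the gene called with LPS at 3.5 h (1.55 ± 0.10), with 0.29 ± 0.09 for VWF. List medians were 0.29 and -0.29 at 3.5 h and 0.10 and -0.13 at 16 h for VWF and LPS.

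Of 10 genes that carry CD40 signals, 6 of 9 tested were higher with each treatment at 3.5 h (medians 1.69 with VWF and 1.88 with LPS), among them Traf1 (5.31 ± 0.21 with VWF), Nfkb2 (2.79 ± 0.11), Birc3 (2.43 ± 0.14) and Relb (2.08 ± 0.11). At 16 h 3 of 8 were higher with VWF and 5 of 8 with LPS (medians 0.80 and 2.18). Of 11 genes listed for the path from interferon receptors to PD-L1, 8 were higher with VWF and 7 with LPS at 3.5 h (medians 1.76 and 2.35), and at 16 h 2 of 10 with VWF (median 0.64) against 9 of 11 higher and 1 lower with LPS (median 1.65). Except with VWF at 16 h, the genes counted as higher include Socs1, a feedback inhibitor of the path. Irf1, a transcription factor that acts on Cd274, was at 54.2 ± 17.8 CPM in control, 432 ± 71.6 CPM with VWF and 1798 ± 97.0 CPM with LPS at 3.5 h.

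**Figure D4:**
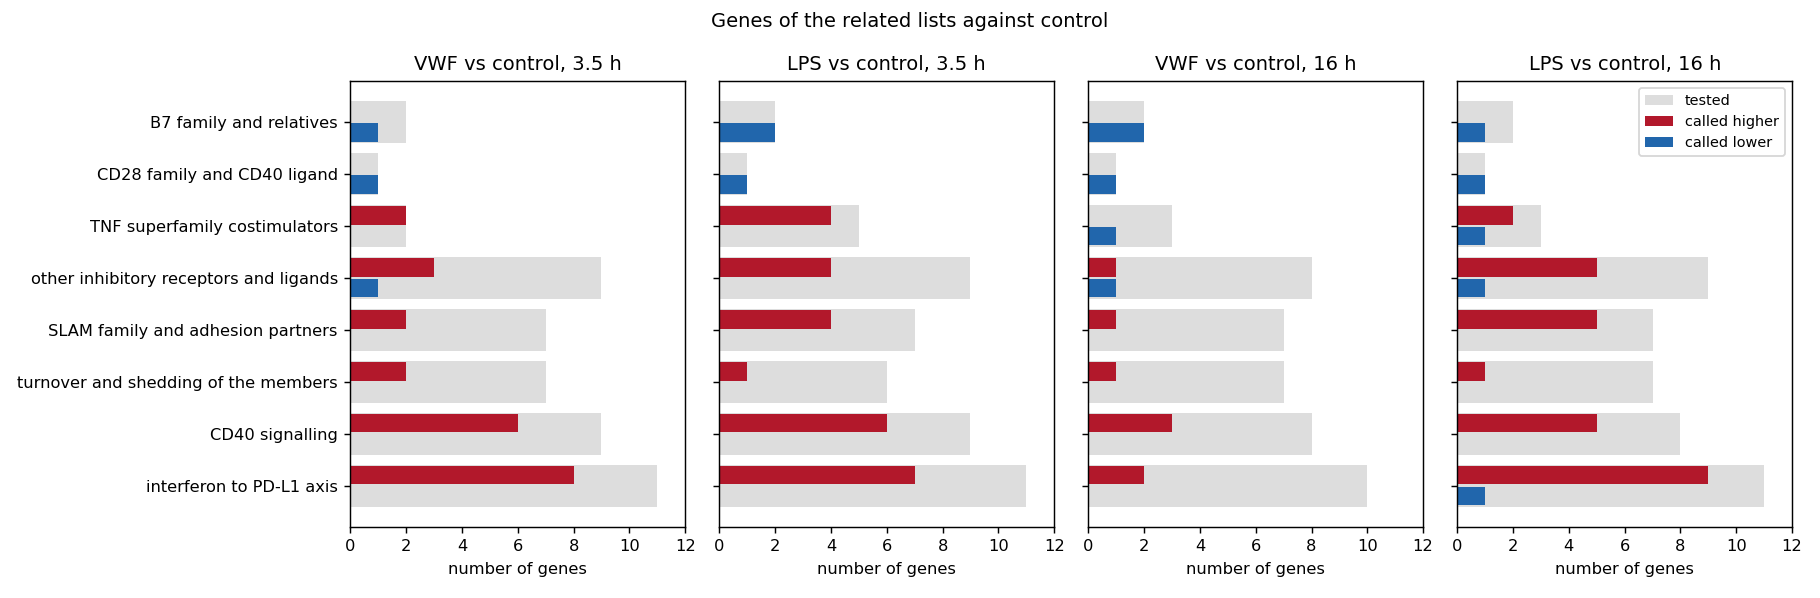
Number of genes tested (grey), called higher (red) and called lower (blue) in each of the 8 related lists, for VWF and LPS against control at 3.5 h and 16 h. With VWF the interferon list went from 8 higher at 3.5 h to 2 at 16 h, and with LPS from 7 to 9.

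Macrophage markers and those of other cells were set beside these results. At 16 h, where Cd86, Cd83 and Cd80 were lower with VWF, the 7 macrophage markers summed to 18400 to 25630 CPM with VWF, 4861 to 16150 CPM in control and 6528 to 11940 CPM with LPS, the lowest of these being LPS replicate 4. Adgre1 (log2 1.80 ± 0.21), Fcgr1 (2.89 ± 0.23) and Itgam (1.18 ± 0.09) were called higher with VWF and the other 4 were not called, and their part in the results was not tested. Lyz2 had the highest mean of the 7 in each group at 16 h, with 16730 CPM for VWF, 10080 for control and 3824 for LPS. With LPS the means of Lyz2 and Csf1r (813.6 against 898) were below control. Those of Adgre1 (1666 against 786.6), Fcgr1 (2296 against 104.3), Cd68 (915.5 against 718.8), Itgam (240.1 against 186.2) and Mertk (84.55 against 59.91) were above it. The control means include replicate 5. The 7 dendritic cell markers summed to 1.455 to 1.964 CPM in control at 3.5 h, 13.8 to 19.5 CPM with VWF and 22.4 to 27.6 CPM with LPS, and at 16 h to 0.934 to 2.44, 1.17 to 4.32 and 20.1 to 41.3 CPM. Xcr1 made up most of this in the LPS groups and with VWF at 3.5 h, Ccr7 reached a mean of 9.17 CPM with LPS at 16 h, and Flt3 stayed at or below 0.206 CPM in every culture. Their part in the changes of Cd40, Cd86, Cd83 and Cd274 was not tested. The T cell list summed to 1.52 to 9.90 CPM, led by Cd4, except in control at 16 h, where Cd5 had a mean of 1.84 and Cd4 of 1.70 CPM, the B cell list to 1.25 to 14.5 CPM, mostly Cd79b, the NK cell list to at most 1.62 CPM, the neutrophil list to at most 5.66 CPM and the fibroblast list to between 18.9 and 418 CPM. In LPS cultures, where Lag3 was highest, the T cell list summed to 3.48 to 5.69 CPM at 3.5 h, against 5.27 to 9.90 CPM in control, and to 1.52 to 4.38 CPM at 16 h, against 3.70 to 4.24 CPM in control. Cd4 led the list at 3.5 h, with means of 4.38 CPM for LPS and 6.03 for control. Cd3d, Cd8a and Trbc2 had higher means with LPS there, at most 0.0712 CPM, and Cd3e, Cd2, Trac and Cd5 had lower ones. The part of T cells or other cells in the Lag3 values was not tested.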

How the data were processed

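Bulk RNA was sequenced from 28 BMDM cultures, and group, time and replicate number were taken from each label. The authors deposited whole-number counts per gene, without normalization, from reads mapped to GRCm38 with STAR (named in the submitters' processing notes). The annotation was not given in the sources used here, and neither were the strand setting and the treatment of reads with several positions. The main test was the quasi-likelihood test of edgeR 4.0.16 (R 4.3.3), robust and with TMM scaling, on the groups of each comparison. The study used DESeq2, which served here as an alternative (version 1.42.0). Tested genes reached 10 TPM in 1 or more cultures of the comparison, with TPM computed from the counts and GENCODE M21 exon lengths. A call needed an adjusted p (Benjamini-Hochberg) below 0.05 and a log2 fold change beyond 1 in either direction. CPM used TMM factors of all 28 cultures, whose total counts lay between 41131209 and 77699206.

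The members, lists and tests were chosen with earlier results of these data known. Values are given for all members, for up to 4 genes per list with the largest change against control, and for the genes nearest each member over the 6 centred group means. Of the listed symbols, Tmigd2, Cd244 and the newer names of March1 and March8 had no match. Alternatives were DESeq2, other scalings, other filters, a joint fit of all groups, a replicate block, no fold threshold, and each culture left out in turn. Same-numbered cultures deviated together, with every correlation over 0.1, only in the 4 pairs of VWF and LPS cultures from 16 h (0.16 to 0.781), and what the numbers stand for is not given in the labels. No culture repeated another of its own group, since the lowest chi-square per degree of freedom was 17.1 over 52 pairs within groups. Cultures of different groups were not compared in this way. The code was tested on simulated data with known changes. Promoter sequence came from RefSeq tables. The values of some list genes are not reported here.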

Additional observations from a re-analysis of the deposited data

Results flagged for a closer look

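Among 48 sets of a gene and a group, 7 held a culture far from the others by Dixon's criterion at the 95% level, a criterion that chance passes in about 1 in 20 sets. Control replicate 5 at 16 h accounted for 3 of them, with Icosl at 3.85 CPM and Cd274 at 10.7 CPM as the lowest and Lag3 at 6.58 CPM as the highest of 5. The others were Cd80 in control replicate 3 at 3.5 h (10.9 CPM) and VWF replicate 1 at 16 h (9.63 CPM), Pdcd1lg2 in control replicate 3 at 3.5 h (0.184 CPM) and Lag3 in VWF replicate 4 at 3.5 h (1.66 CPM).

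Treatment effects that differed between the times, by edgeR's interaction test on the log2 scale as 16 h minus 3.5 h, were those of VWF on Cd80 (-1.06), Cd86 (-2.71), Cd40 (-4.73), Icosl (-4.46), Cd274 (-1.69) and Cd83 (-5.79). Those of LPS were on Cd86 (1.32), Cd40 (-1.41), Icosl (-2.45), Cd274 (1.74), Cd83 (-2.29) and Lag3 (-1.26). The difference between VWF and LPS shifted for Cd86 (-4.04), Cd40 (-3.33), Icosl (-2.03), Cd274 (-3.44), Cd83 (-3.52) and Lag3 (-2.10). The limits that the expression filter sets on these interaction calls, given above, hold here too.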

How the results depend on the processing

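Of 1373 recomputed member values, 1356 kept their direction and their side of the threshold. The log2 fold change of Cd86 with VWF at 3.5 h, near 0, was -0.22 with library sizes alone, -0.0087 with all 6 groups in one fit and between -0.11 and 0.11 when each culture was left out. Cd83 in VWF against LPS at 3.5 h was 0.15 with library sizes alone. That scaling moved the median log2 fold change of all genes to -0.22 for VWF and -0.55 for LPS against control at 3.5 h, and to -0.59 for LPS at 16 h. Under it Cd80 with LPS at 3.5 h (0.90), Cd40 in VWF against LPS at 3.5 h (-0.82) and the Cd80 interaction with VWF (-0.93) fell under the fold threshold and Cd83 with LPS at 16 h (-1.03) passed it. Icosl between the times in LPS cultures lost its call with no filter, with a log2 value of -1.94 and an adjusted p of 0.0581.

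Members called between the times numbered 6 in LPS cultures without a fold threshold, against 3. In control cultures the count was 3 without a fold threshold, 1 with filterByExpr, 1 with no filter and 0 to 1 when each culture was left out, where Cd80 reached 1.02 without control replicate 3 or 4 at 16 h. With the replicate number as a block, 6 members were called in VWF against LPS at 16 h, with Lag3 at -7.58, and no member's call changed in any comparison. The cause of these changes was not tested. Pdcd1lg2 and Lag3 in VWF cultures at 16 h rest on few reads, at most 24 and 50 per culture. The highest count of Pdcd1lg2 in any culture was 114, with LPS at 16 h.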
